A study of Homo sapiens with 66 samples.

Results

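Translesion synthesis is the copying of damaged DNA by polymerases that tolerate distorted bases, and the group described here comprised POLH, POLI, POLK, REV1, REV3L, MAD2L2 and RAD18. The 7 genes were taken by symbol out of 57992 gene identifiers. They were chosen for their role and not by a measured value, but with earlier results of these data known. All 7 passed the filter on low counts in every cell line, with 166 to 3537 reads per library. RNA was sequenced from 11 acute myeloid leukemia (AML) cell lines, spelled F36P, HL60, KASUMI1, MOLM13, MONOMAC6, MV411, NB4, NOMO1, OCIAML2, OCIAML3 and THP1 in the labels and hyphenated here as in F-36P. Each cell line was kept in medium (untreated) or exposed for 24 hours to etoposide, a poison of topoisomerase II that leaves DNA strand breaks, at the half-maximal inhibitory concentration of that line. The concentration therefore differed between cell lines, and the labels give no genotype. Each of the 22 groups had 3 libraries, described as biological replicates, and the RNA of a library came from 3 pooled wells of 1 cell line. For OCI-AML2 the treated libraries had been set aside in the study at the quality control of raw reads, and that line was kept apart from the other 10.

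When a replicative polymerase stalls at a lesion, the ubiquitin ligase RAD18 modifies the sliding clamp PCNA, and a specialised polymerase is recruited in its place. The Y-family enzymes POLH, POLI, POLK and REV1 insert a base opposite the lesion, and polymerase zeta, with the catalytic subunit REV3L and the accessory subunit MAD2L2, extends from it. MAD2L2 also belongs to the shieldin complex, which protects broken DNA ends from resection. POLH, mutated in the variant form of xeroderma pigmentosum, copies past ultraviolet photoproducts and is known to be inducible by p53.

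The genes lie on GRCh38 at chr6:43576185-43620523 (POLH, plus strand), chr18:54269517-54321266 (POLI, plus), chr5:75511845-75609991 (POLK, plus), chr2:99400475-99490035 (REV1, minus), chr6:111299028-111483715 (REV3L, minus), chr1:11658918-11691811 (MAD2L2, minus) and chr3:8775402-8963773 (RAD18, minus). No exon of the 7 genes overlapped an exon of another gene on the same strand, and the counts were kept by strand. RefSeq promoters (GRCh38.p14, from 250 bases before to 50 bases after the start of transcription) were found for all 7 genes. The promoters of POLH, POLI and RAD18 are shown because POLH and POLI changed in the most cell lines and RAD18 was, with MAD2L2, the member whose change over 10 lines was nearest to that of S phase and mitosis genes. They lie at chr6:43575935-43576234 on the plus strand, chr18:54269324-54269623 on the plus strand and chr3:8963423-8963722 on the minus strand, and capitals mark motif matches.
POLH promoter: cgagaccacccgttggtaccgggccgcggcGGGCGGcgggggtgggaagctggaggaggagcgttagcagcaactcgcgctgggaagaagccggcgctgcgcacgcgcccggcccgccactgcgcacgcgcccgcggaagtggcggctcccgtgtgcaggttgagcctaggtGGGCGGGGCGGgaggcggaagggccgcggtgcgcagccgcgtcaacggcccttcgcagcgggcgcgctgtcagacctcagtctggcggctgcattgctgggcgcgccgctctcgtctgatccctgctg
POLI promoter: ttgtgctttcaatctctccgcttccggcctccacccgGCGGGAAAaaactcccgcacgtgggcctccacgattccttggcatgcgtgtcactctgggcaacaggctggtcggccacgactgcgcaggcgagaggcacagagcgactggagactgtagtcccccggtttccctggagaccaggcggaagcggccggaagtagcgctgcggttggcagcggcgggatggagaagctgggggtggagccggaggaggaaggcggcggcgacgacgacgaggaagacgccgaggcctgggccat
RAD18 promoter: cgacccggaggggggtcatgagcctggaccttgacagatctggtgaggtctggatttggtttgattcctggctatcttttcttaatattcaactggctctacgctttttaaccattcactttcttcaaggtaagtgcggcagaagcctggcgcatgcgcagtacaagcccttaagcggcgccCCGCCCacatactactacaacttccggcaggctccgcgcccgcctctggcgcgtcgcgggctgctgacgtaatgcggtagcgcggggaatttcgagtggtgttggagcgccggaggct
Both strands were searched for the p53 half-site consensus, for E2F sites (TTTCCCGC, TTTGGCGC, TTTGCCGC or TTTCGCGC), for the GC box GGGCGG and for CCAAT. In POLH the capitals are 3 GC boxes, starting 220, 78 and 73 bases before the start, of which the last pair share a base. In POLI they are 1 E2F match on the minus strand, and in RAD18 they are 1 GC box on the minus strand. No p53 half-site match was found in any member's window, a motif present in 6.63% of 35116 promoters of that length, and such windows say nothing of sites elsewhere. An E2F match stood in 3.31% of all promoters, a GC box in 45.0% and CCAAT in 34.6%, and among the members E2F was found in POLI and in the downstream start of REV3L.

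Reads on genes numbered from 17997404 to 24101670 per library, with a median of 20241014. Counts are given as CPM, that is, scaled to the TMM-normalised size of the library. Only the marker levels in this paragraph were scaled to the reads on genes without TMM. All CPM are relative to the RNA of the library, so that less RNA per cell and fewer cells of a kind cannot be told apart. Of 10 myeloid markers, at least 7 reached 1 CPM in the untreated cells of every line, among them CD33, SPI1 and PTPRC. All 7 erythroid markers did so in F-36P, against at most 2 elsewhere, and the summed lymphoid markers reached 168 to 199 CPM in untreated NOMO-1 but at most 11.4 CPM in the other untreated lines. Of 3 epithelial markers EPCAM reached 1 CPM in untreated KASUMI-1 and NB-4. After etoposide 56.0% of the tests of myeloid markers in 10 lines rose and 19.0% fell, against 27.7% and 24.4% of all gene-by-line tests. ITGAM, a marker of myeloid differentiation, rose in 10 lines, and LYZ rose in 8 and fell in 2. MPO, of granule precursors, rose in 2 and fell in 7, and CEBPA rose in 3 and fell in 3. Of 22 tests of lymphoid markers 17 rose, and of 23 of erythroid markers 4 rose and 9 fell, 6 of these falls in F-36P. Many of these markers lay near or under 1 CPM. In untreated MV-4-11 the 5 lymphoid markers summed to 0.653 to 0.959 CPM, and the 2 tested there rose. The filter can be passed on the reads of either group, so that a low marker can enter through the group in which it is high. These lymphoid and erythroid counts are therefore no test of a shift. The part of such shifts in the results that follow was not tested.

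Before treatment, the 7 genes were expressed at unequal levels and differed between cell lines to unequal degrees. Levels of different genes were compared per kilobase of the canonical transcript. On that scale MAD2L2 had the highest mean over 11 untreated cell lines, 71.6 CPM per kilobase, followed by REV1 (12.8), RAD18 (9.62), REV3L (5.39), POLI (4.88), POLH (3.69) and POLK (1.69). The gaps and part of this order depend on the length used, since reads were counted over all exons of a gene. The merged exons of MAD2L2 span 5431 bases against 1053 of its canonical transcript, and those of REV1 7769 against 4731. The basal level of all 7 genes differed among the cell lines (edgeR quasi-likelihood F-test over 33 libraries, adjusted p between 2.2e-19 for MAD2L2 and 0.000106 for POLK). The same was found for 99.4% of all genes tested, and the size of the spread is therefore given.

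POLH, the polymerase of ultraviolet lesions, was highest in MOLM-13 with 51.3, 48.5 and 43.7 CPM and lowest in NB-4 with 16.97, 15.01 and 15.64 CPM. These ranges lay far apart, at a ratio of 3.01 between the means (log2 difference 1.59 ± 0.11 (SE), edgeR adjusted p = 2.16e-15). In order, MOLM-13, MV-4-11 (46.2 CPM), OCI-AML2 (42.3) and MONO-MAC-6 (37.0) were followed by OCI-AML3, F-36P, HL-60 and THP-1 at 27.0 to 30.0 CPM, then KASUMI-1 (21.4), NOMO-1 (16.6) and NB-4 (15.9). Of the 10 neighbouring pairs in this order, 3 differed beyond their spread, namely MONO-MAC-6 from OCI-AML3, THP-1 from KASUMI-1 and KASUMI-1 from NOMO-1.

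POLI, which pairs bases in an unusual geometry and is error-prone, was highest in HL-60 with 55.1, 59.9 and 51.1 CPM. The next line, MV-4-11, had 37.42, 34.38 and 33.02 CPM, and no library of the other 10 lines reached the range of HL-60. F-36P was lowest with 11.6, 12.7 and 18.4 CPM, a ratio of 3.89 to HL-60 (log2 difference 1.96 ± 0.14, adjusted p = 1.44e-14). Only these ends of the order stood apart from their neighbours, and the 9 lines from MV-4-11 down to KASUMI-1, at 34.9 to 23.8 CPM, did not differ from one neighbour to the next.

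MAD2L2, the subunit shared by polymerase zeta and shieldin, had the largest SD of the log2 level over the lines, 0.61. NOMO-1 held 143.9, 153.6 and 160.1 CPM and NB-4 held 122.0, 146.4 and 120.2 CPM, whereas MONO-MAC-6 held 39.4, 42.8 and 40.7 CPM. The ratio of NOMO-1 to MONO-MAC-6 was 3.72 (log2 difference 1.90 ± 0.11, adjusted p = 2.74e-17), and 5 of 10 neighbouring pairs differed, including all 4 pairs from NOMO-1 down to OCI-AML3. REV3L, the other subunit of polymerase zeta, had another order. It was highest in HL-60 (95.3, 96.2 and 91.7 CPM), followed by OCI-AML2 (79.4 on average) and MOLM-13 (77.3), and lowest in OCI-AML3 (36.9, 30.0 and 41.9 CPM). The ratio of the ends was 2.61, but no neighbouring pair differed, and in F-36P the 3 untreated libraries alone spanned 31.9, 47.7 and 86.9 CPM.

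REV1, the scaffold to which the other Y-family enzymes bind, ranged from 45.0 CPM in MOLM-13 to 78.3 CPM in KASUMI-1. POLK, which copies past bulky adducts, ranged from 18.7 CPM in NOMO-1 to 31.5 CPM in MOLM-13. RAD18 ranged from 39.0 CPM in MONO-MAC-6 to 71.3 CPM in MV-4-11. None of their neighbouring pairs differed. The SD of the log2 level over 11 lines was 0.24 for REV1 and 0.28 for POLK, and 2.73% and 5.84% of 13690 genes had a smaller one, compared with a median SD of 0.63 over all genes. As a description over 11 lines, the basal levels of POLH and POLK went together (Pearson's r = 0.82), as did those of REV1 and RAD18 (r = 0.75), and those of POLH and MAD2L2 ran opposite (r = -0.62). These points share the normalisation of the 33 libraries.

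**Figure D1:**
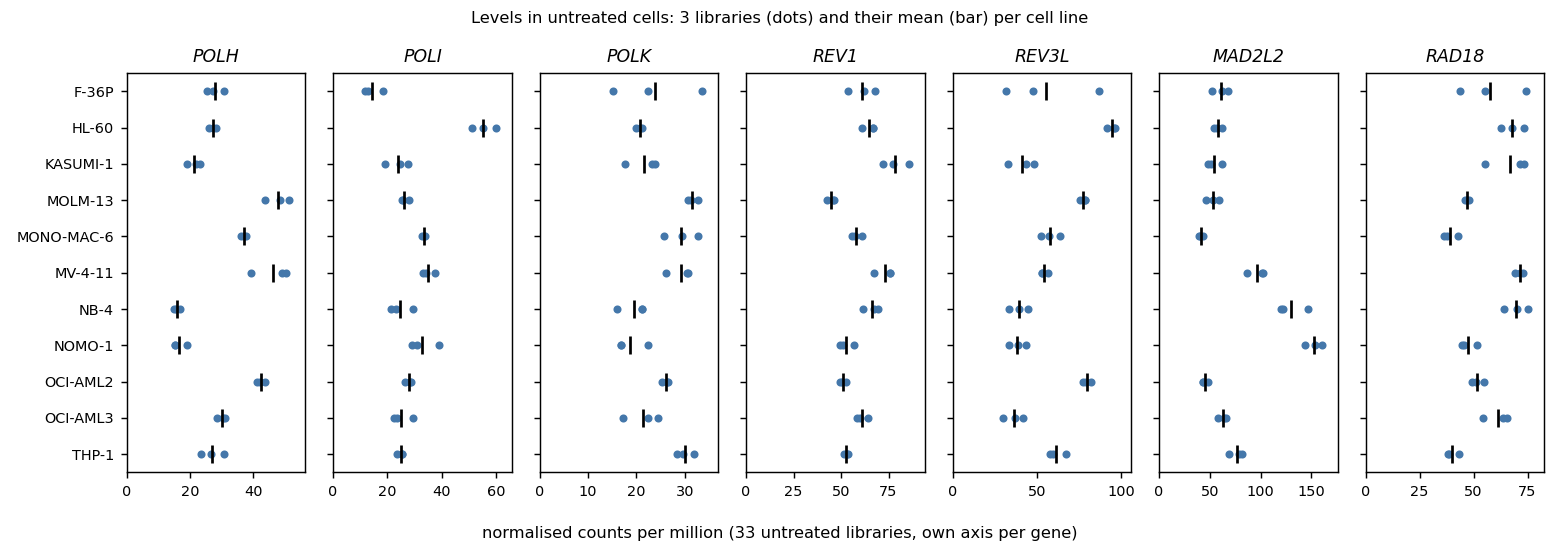
Levels of the 7 genes in untreated cells, in TMM-normalised CPM on the horizontal axis (each gene on its own axis from 0), by cell line. Dots are the 3 libraries and bars their mean. MAD2L2 stands at 152.5 CPM in NOMO-1 against 41.0 in MONO-MAC-6, and the POLI level of HL-60 (55.4 CPM) lies above all others.

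To ask how etoposide changed these genes, treated and untreated cells were compared within each cell line (edgeR quasi-likelihood test, 3 against 3 libraries, Benjamini-Hochberg adjustment over all genes tested in that line; a gene rose or fell where this false discovery rate (FDR) was below 0.05). In the 10 cell lines, 70 tests of the members gave 14 rises and 15 falls, or 20% and 21.4%. Among all gene-by-line tests 27.7% rose and 24.4% fell, both shares above those of the members. Scaled by library size alone, which moved the median of all genes by -0.01 to 0.25 (log2) depending on the line, the members gave 20 rises and 7 falls, and with a minimum mean of 5 CPM they gave 15 and 9. With the further requirement of a fold change above 2, which the study used, 1 rise (POLH in OCI-AML3) and 1 fall (POLI in THP-1) remained, against 11.1% and 3.96% of all tests. The 3 treated and 3 untreated libraries did not overlap in 25 of 70 tests, or 35.7%, against 59.8% over all genes. The members did not move as a block. POLH and REV3L had rises and no falls, POLI and REV1 had falls and no rises, and the other 3 genes moved either way. For POLI, REV1 and REV3L this depended on the processing. Under several alternatives POLI also rose in KASUMI-1 (adjusted p = 0.0172 by library size alone) and REV1 in MONO-MAC-6 (0.00734 likewise). REV1 also rose in HL-60 and NOMO-1 with 1 library left out. Under several alternatives REV3L fell in F-36P (0.0498 by RLE scaling), and without a filter it fell in MOLM-13 (0.0286).

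**Figure D2:**
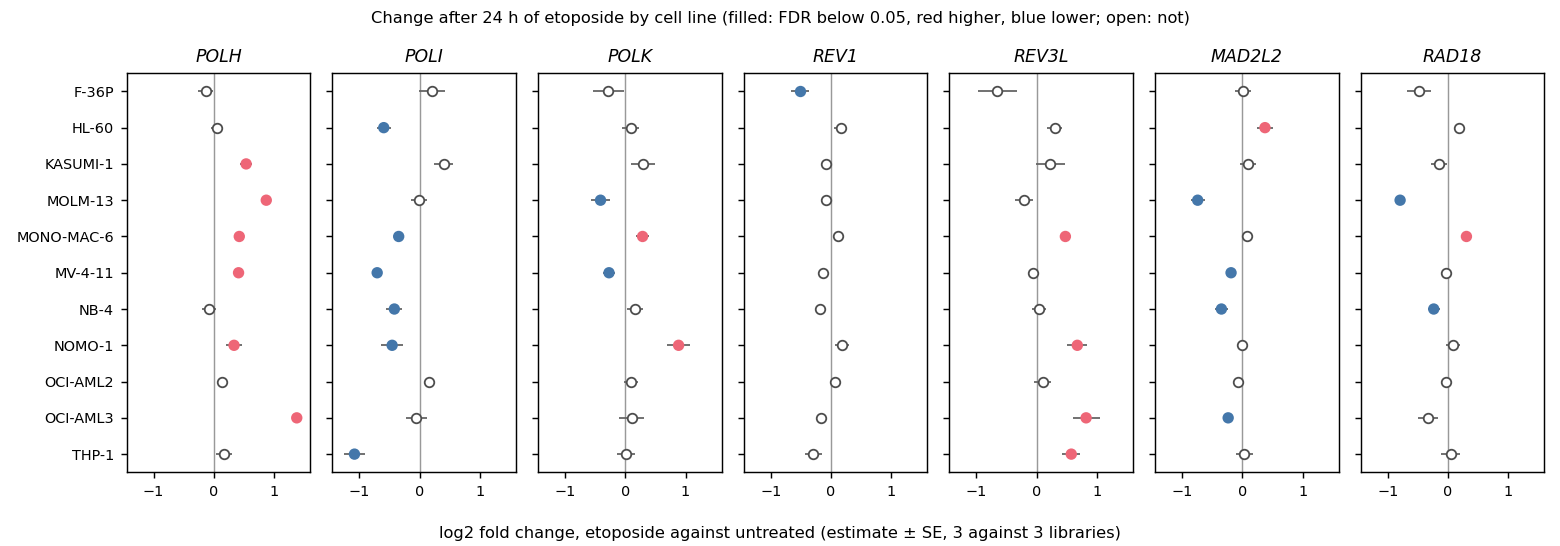
Log2 fold change of each gene after 24 hours of etoposide, with its standard error, by cell line. Filled points passed the test at an FDR below 0.05 (red higher, blue lower) and open points did not. POLH is filled to the right in 6 lines and POLI to the left in 6 lines, while the 7 points of OCI-AML2 are all open.

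POLH rose in 6 of 10 cell lines, more often than any other member. In OCI-AML3 it read 30.5, 30.9 and 29.1 CPM untreated and 78.4, 79.1 and 77.2 CPM after etoposide. The ranges were far apart, at a log2 fold change of 1.38 ± 0.07 (SE; edgeR adjusted p = 3.71e-06), or 2.59-fold. In MOLM-13, which already had the highest basal level, it went from 49.3, 46.6 and 41.9 CPM to 81.2, 87.6 and 82.8 CPM, a log2 fold change of 0.87 ± 0.08 (adjusted p = 1.27e-05). KASUMI-1 (log2 fold change 0.54), MONO-MAC-6 (0.42) and MV-4-11 (0.41) followed, again with no overlap between treated and untreated libraries. These 5 rises held under all 15 alternatives tried.

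In NOMO-1 the groups overlapped (17.2, 21.1 and 17.3 CPM against 25.38, 24.95 and 19.76 CPM). The rise there, 0.33 ± 0.13 with an adjusted p of 0.0422, was lost under 8 of 15 alternatives, among them the omission of untreated replicate 1 (adjusted p = 0.137) or 3 (0.148) and of etoposide replicate 1 (0.132) or 2 (0.13). HL-60 (log2 fold change 0.05), THP-1 (0.17), NB-4 (-0.09) and F-36P (-0.14) did not pass the test. Over the 10 cell lines the mean log2 fold change of POLH was 0.39 ± 0.46 (SD), it was above 0 in 8 of 10 lines, and the two-sided exact sign-flip permutation test gave p = 0.0176 and an adjusted p of 0.0424 over all genes. That test was passed by 43.3% of genes. Without filter on low counts the adjusted p was 0.064, and without untreated replicate 2 or 3 it was 0.0566 or 0.0533.

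POLI showed the opposite tendency and fell in 6 of 10 cell lines. In THP-1 it read 24.2, 26.2 and 26.2 CPM untreated and 15.4, 8.18 and 12.5 CPM after etoposide. The groups did not overlap, and the log2 fold change was -1.08 ± 0.18 (adjusted p = 0.000187), or 2.12-fold lower. In MV-4-11 the values were 39.8, 36.9 and 35.3 CPM before and 24.96, 23.89 and 19.92 CPM after (log2 fold change -0.70 ± 0.09, adjusted p = 3.72e-07). In HL-60, where the basal level was highest, they were 59.2, 64.0 and 54.9 CPM before and 45.2, 35.0 and 37.8 CPM after (-0.60 ± 0.11, adjusted p = 0.00143). These 3 falls held under all 15 alternatives.

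MONO-MAC-6 (log2 fold change -0.35, adjusted p = 0.00218), NB-4 (-0.42, 0.0119) and NOMO-1 (-0.46, 0.0481) also passed. In 1 fit of 60 libraries those in MONO-MAC-6 (adjusted p = 0.122) and NB-4 (0.0979) were lost. The call in NB-4 was also lost by library size alone (log2 fold change -0.21, 0.174) and without untreated replicate 3 (0.0511), and that in NOMO-1 without untreated replicate 1 (0.186), 2 (0.0671) or 3 (0.0566). In KASUMI-1 the estimate was higher, from 27.6, 24.8 and 19.0 CPM to 35.1, 24.8 and 34.1 CPM (0.40 ± 0.17, adjusted p = 0.0618), and it passed under 9 alternatives, including the omission of untreated replicate 1 (0.0327) or etoposide replicate 2 (0.00627). F-36P (0.21), MOLM-13 (-0.01) and OCI-AML3 (-0.05) did not pass. The mean of POLI over 10 cell lines was -0.31 ± 0.45 (SD), below 0 in 8 of 10 lines, with an exact sign-flip p of 0.0547 and an adjusted p of 0.103. POLH and POLI passed in opposite directions in 3 lines, MONO-MAC-6, MV-4-11 and NOMO-1.

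**Figure D3:**
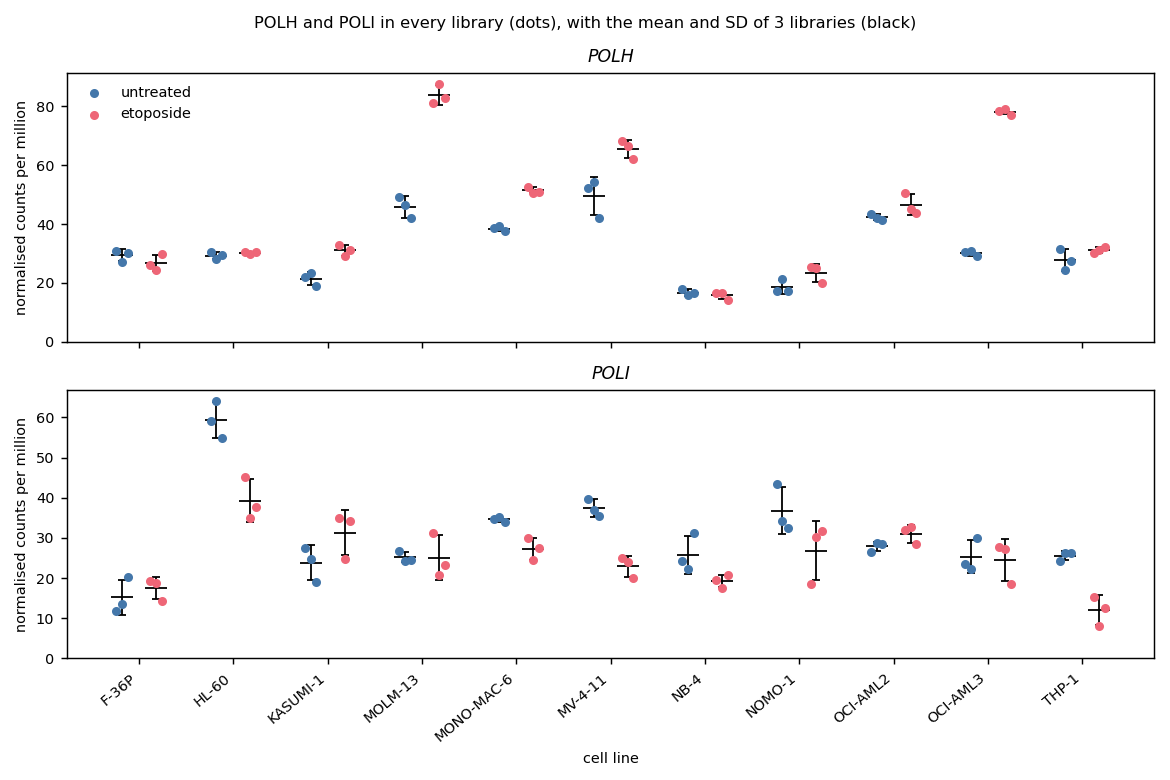
POLH and POLI in each of the 66 libraries, in TMM-normalised CPM on axes from 0, untreated in blue and etoposide in red. Black marks are the mean and SD of 3 libraries. POLH in OCI-AML3 moves from about 30 to about 78 CPM, and the POLI libraries of THP-1 move from 24.2 to 26.2 CPM down to 8.18 to 15.4 CPM.

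POLK rose in 2 and fell in 2 cell lines. In NOMO-1 it went from 25.1, 18.7 and 18.9 CPM to 26.2, 48.7 and 40.8 CPM. The lowest treated library lay just above the highest untreated one, and the log2 fold change was 0.89 ± 0.19 (adjusted p = 0.00214). The smaller changes in MONO-MAC-6 (0.29, adjusted p = 0.045), MOLM-13 (-0.41, 0.0475) and MV-4-11 (-0.27, 0.0149) were each lost under 5 to 7 alternatives, including the omission of etoposide replicate 2 in MOLM-13 (adjusted p = 0.113) and in MV-4-11 (0.112), of etoposide replicate 3 in MONO-MAC-6 (0.216) and MOLM-13 (0.108), and of untreated replicate 3 in all 3 lines (0.057 to 0.123). In 1 fit of 60 libraries all 3 were lost (0.2 to 0.438), and by library size alone MV-4-11 had -0.14 (0.19). In MOLM-13 untreated replicates 1 and 2 (0.0983 and 0.0803), in MONO-MAC-6 untreated replicate 2 (0.158) and etoposide replicate 1 (0.103), and in MV-4-11 untreated replicate 1 (0.0604) had the same effect. The other 6 estimates did not pass and lay between -0.28 in F-36P and 0.30 in KASUMI-1. That of F-36P passed without untreated replicate 1 (-0.58, adjusted p = 0.0123) and that of KASUMI-1 without etoposide replicate 2 (0.51, 0.00728). That of NB-4 passed by library size alone (0.37, 0.0197). The mean over 10 lines was 0.09 ± 0.37 (SD).

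REV1 fell in 1 cell line, F-36P. The values there were 54.5, 66.2 and 74.7 CPM untreated and 50.6, 41.0 and 45.4 CPM after etoposide. The groups did not overlap (log2 fold change -0.51 ± 0.15, adjusted p = 0.0117), but the call was lost by library size alone (-0.26, adjusted p = 0.127), at a minimum mean of 5 CPM (-0.355, 0.0588) and without etoposide replicate 2 (0.0529). In the other 9 lines the change of REV1 stayed between -0.29 and 0.18, and its SD over 10 lines, 0.21, was the smallest of the 7 genes. Some of these 9 passed when 1 library was left out, higher in HL-60 (without etoposide replicate 2, adjusted p = 0.0264), NOMO-1 (without etoposide replicate 1, 0.022) and MONO-MAC-6 (without untreated replicate 1, 0.0428, or etoposide replicate 2, 0.0445), and lower in THP-1 (without etoposide replicate 1, 0.0419) and MV-4-11 (without untreated replicate 2, 0.0388, or etoposide replicate 1, 0.0161). In NB-4, where the replicate numbers paired the libraries, a fit with the replicate as a block gave a fall of REV1 (-0.17 ± 0.07, adjusted p = 0.0308, against 0.103 without the block).

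The subunits of polymerase zeta did not change alike. REV3L, the catalytic subunit, rose in MONO-MAC-6, NOMO-1, OCI-AML3 and THP-1. In THP-1 it went from 69.2, 59.3 and 61.1 CPM to 101.2, 71.5 and 109.5 CPM, with no overlap (0.58 ± 0.15, adjusted p = 0.00676), and in MONO-MAC-6 from 66.1, 54.5 and 59.2 CPM to 86.3, 79.1 and 84.7 CPM (0.48 ± 0.07, adjusted p = 0.000112, but 0.09 in 1 fit of 60 libraries). In OCI-AML3 treated libraries of 75.0, 76.5 and 42.3 CPM overlapped untreated ones of 37.2, 29.7 and 42.8 CPM. The estimate of 0.82 ± 0.22 (adjusted p = 0.0187) there was lost when any of 4 libraries was left out, with an adjusted p of 0.0607 or 0.059 without untreated replicate 1 or 2 and 0.0575 or 0.0524 without etoposide replicate 1 or 2. The rise in NOMO-1 was 0.68 ± 0.17 (adjusted p = 0.00517). The groups overlapped there too, with 48.3, 43.1 and 37.3 CPM untreated and 47.6, 78.8 and 79.2 CPM after etoposide. The mean over 10 lines was 0.22 ± 0.45 (SD). In F-36P the estimate of -0.65 ± 0.32 did not pass (adjusted p = 0.105), but it did without a filter (-0.74, 1.82e-05) and in 1 fit of 60 libraries (-0.59, 0.0221). Elsewhere REV3L passed when 1 library was left out, higher without etoposide replicate 2 in HL-60 (0.46, adjusted p = 0.00151) and KASUMI-1 (0.48, 0.0133), and lower without etoposide replicate 1 in MOLM-13 (-0.40, 0.00392) and MV-4-11 (-0.16, 0.0276) and without untreated replicate 1 in F-36P (-0.99, 0.0012).

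MAD2L2 rose in HL-60 (0.38, adjusted p = 0.0355) and fell in MOLM-13, MV-4-11, NB-4 and OCI-AML3. In MOLM-13 it went from 44.7, 51.3 and 57.1 CPM to 26.1, 32.6 and 32.8 CPM, with no overlap (log2 fold change -0.74 ± 0.12, adjusted p = 0.000371). In NB-4 it went from 127.8, 153.3 and 127.3 CPM to 93.3, 116.3 and 111.6 CPM (-0.35 ± 0.10, adjusted p = 0.00916), but the call was lost by library size alone (-0.14, adjusted p = 0.26) and without etoposide replicate 1 (0.0539). The falls in MV-4-11 (-0.19, 0.0272) and OCI-AML3 (-0.24, 0.037) were under 1.2-fold and were lost under 6 and 10 alternatives. In MV-4-11 these included library size alone (-0.06, adjusted p = 0.483) and the omission of untreated replicate 2 (adjusted p = 0.122) or 3 (0.126) or etoposide replicate 1 (0.0536), in OCI-AML3 that of untreated replicate 1 (0.145) or 2 (0.105) or etoposide replicate 1 (0.106) or 2 (0.121). The rise in HL-60 was lost without untreated replicate 1 (0.121) or 2 (0.0926) or etoposide replicate 2 (0.0566) or 3 (0.134).

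RAD18, which modifies PCNA together with the conjugating enzymes UBE2A and UBE2B, fell in MOLM-13 from 46.2, 44.1 and 45.1 CPM to 27.1, 23.0 and 27.9 CPM. This was the clearest fall of the gene, with no overlap and a log2 fold change of -0.80 ± 0.09 (adjusted p = 4.17e-05). It rose in MONO-MAC-6 from 44.6, 39.3 and 37.9 CPM to 52.1, 47.9 and 50.4 CPM (0.31 ± 0.07, adjusted p = 0.00275, but 0.0872 in 1 fit of 60 libraries). The fall in NB-4 (-0.24, adjusted p = 0.0447) was lost under 8 alternatives, among them library size alone (-0.03, 0.789) and the omission of untreated replicate 1 (0.147) or 3 (0.0577) and of etoposide replicate 2 (0.14) or 3 (0.181). In F-36P the estimate of -0.48 ± 0.21 did not pass (adjusted p = 0.0669). It passed without untreated replicate 1 (0.00134), and also with all libraries under some alternatives. The adjusted p was then 0.00108 without a filter, 0.0261 by RLE scaling, 0.016 with DESeq2 and 0.00817 in 1 fit of 60 libraries. RAD18 also passed in OCI-AML3 without etoposide replicate 1 (-0.49, adjusted p = 0.0426) and in THP-1 without etoposide replicate 2 (0.24, 0.0324).

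By cell line, 5 of 7 members passed in MONO-MAC-6, where 62.3% of all genes did. POLH, POLK, REV3L and RAD18 rose there and POLI fell. In NOMO-1 4 passed (52.7% of all genes), with rises of POLH, POLK and REV3L and a fall of POLI. In MOLM-13 POLH rose but POLK, MAD2L2 and RAD18 fell (4 of 7, against 56.2%), and in MV-4-11 POLH rose while POLI, POLK and MAD2L2 fell (4 of 7, against 63.9%). NB-4 had 3 falls, of POLI, MAD2L2 and RAD18, and no rise (59.8% of all genes passed). With the replicate as a block REV1 fell there as well (adjusted p = 0.0308). In OCI-AML3 POLH and REV3L rose and MAD2L2 fell (3 of 7, against 40.1%). THP-1, with the rise of REV3L and the fall of POLI, and HL-60, with the rise of MAD2L2 and the fall of POLI, had 2 each (32.1% and 32.5% of all genes). KASUMI-1, with the rise of POLH, and F-36P, with the fall of REV1, had 1 each (60.1% and 59.9% of all genes). These counts depended on the processing. POLI in KASUMI-1 and RAD18 and REV3L in F-36P passed under some alternatives, and REV1 in F-36P was lost under 3 of 15. In OCI-AML2 0 of 7 members passed with edgeR's quasi-likelihood test, its exact test or DESeq2, and none had an unadjusted p below 0.05 in the quasi-likelihood fit, where 0.0221% of all genes passed. POLH there read 43.6, 42.1 and 41.4 CPM untreated and 50.6, 45.2 and 43.8 CPM after etoposide, without overlap but with an adjusted p of 0.998.

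The size of the etoposide change differed between the 10 cell lines for all 7 genes (edgeR quasi-likelihood test of the line-by-treatment interaction, 60 libraries). The adjusted p was 4.81e-13 for POLH, 2.69e-05 for POLI, 4.63e-05 for MAD2L2, 0.000177 for RAD18, 0.00212 for REV1, 0.00316 for REV3L and 0.0157 for POLK. A difference of this kind was found for 74.5% of all genes. That of POLK was lost with a replicate block (0.0648), without untreated replicate 2 (0.0671) or 3 (0.109) and without etoposide replicate 3 (0.0908), and that of REV1 without untreated replicate 3 (0.065) or etoposide replicate 3 (0.0635).

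The order of the POLH changes followed that of other p53 targets. A list of 22 such targets, without POLH, had a median log2 fold change of 1.98 in OCI-AML3, where 22 of 22 rose, and of 1.14 in MOLM-13, where 20 of 21 tested rose. The medians were lowest in F-36P (0.30) and NB-4 (0.25), the lines with the lowest POLH estimates. Over the 10 lines Pearson's r between the POLH change and this median was 0.94 and Spearman's rho 0.86, and r was 0.78 without OCI-AML3 and MOLM-13. Over those 8 lines it was 0.845 for RAD18, 0.73 for REV3L and 0.70 for REV1, against -0.29, 0.48 and 0.11 over 10 lines, so that without that pair the likeness was not particular to POLH. Both values of a point come from the same 6 libraries. In all, 72.9% of the tests of this list rose and 4.93% fell, against 27.7% and 24.4% of all gene-by-line tests. The genes tested were not the same in each line, from 18 in NB-4 to 22 in OCI-AML3. A low gene can pass the filter only where it is induced. SPATA18 was tested in 1 of the 10 lines, OCI-AML3 (5.97). PHLDA3 and TP53I3 rose in all 6 and all 8 lines in which they were tested. The shares, the medians and r include such genes. CDKN1A, the inhibitor of cyclin-dependent kinases, and BTG2, an antiproliferative gene, rose in 10 of 10 lines, including those in which POLH did not pass.

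Over all 10 lines RAD18 and MAD2L2 were the members whose change was most like that of a list of 18 genes of S phase and mitosis. All 18 fell in MOLM-13, with a median log2 fold change of -1.07, and in HL-60 8 rose and 3 fell (median 0.27). Over 10 lines r with this median was 0.87 for RAD18 and 0.87 for MAD2L2, and 0.68 and 0.63 without MOLM-13 and OCI-AML3. Over those 8 lines REV3L (0.79) and REV1 (0.75) stood above them and POLK (0.67) beside them, from 0.48, 0.44 and 0.70 over 10 lines. The changes of RAD18 and MAD2L2 also correlated with each other (r = 0.77). The genes of the list rose in 24.4% and fell in 42.8% of tests, against 27.7% and 24.4% of all gene-by-line tests. BUB1 and CCNB1, of mitosis, each fell in 8 lines, and CDC6, which loads the replicative helicase, rose in 8 and fell in 2. For POLI r was 0.20 with the p53 target median and -0.28 with the S phase and mitosis median, and the 6 lines with a fall of POLI included MV-4-11, where 15 of the 18 genes fell and 2 rose, and HL-60.

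**Figure D4:**
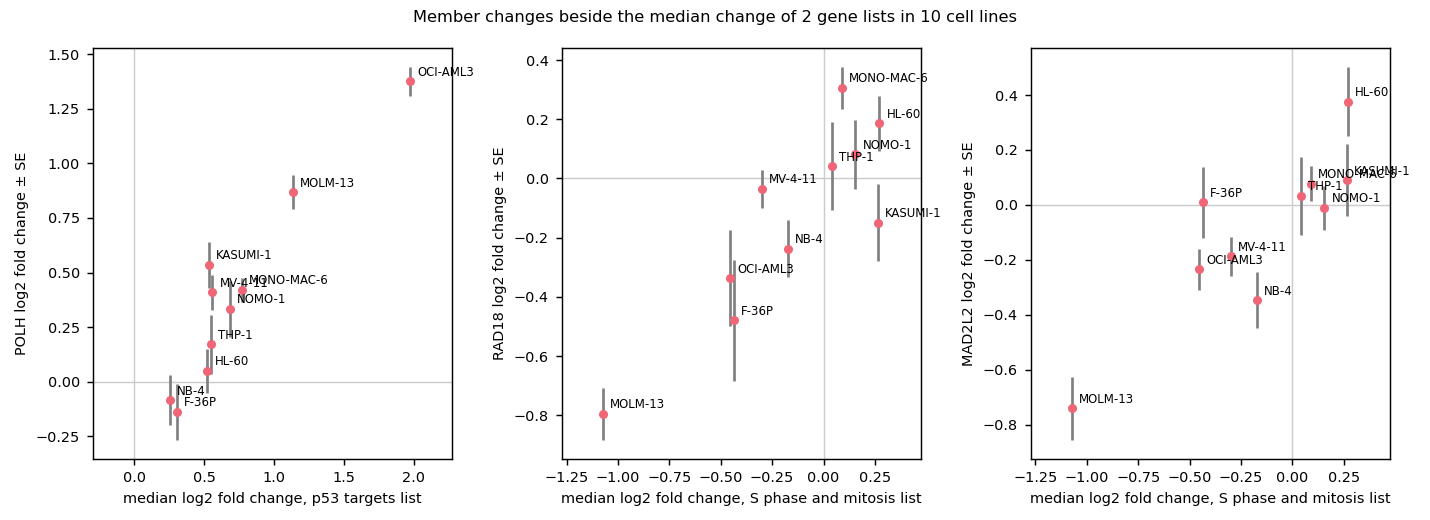
Log2 fold change of POLH against the median of the p53 target list, and of RAD18 and MAD2L2 against the median of the S phase and mitosis list, in 10 cell lines. Bars are the standard error of the gene. OCI-AML3 and MOLM-13 are the rightmost points for POLH (1.38 and 0.87), and MOLM-13 is the leftmost for RAD18 and MAD2L2 (-0.80 and -0.74).

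Among 13 other genes of PCNA ubiquitylation and its removal, 33.8% of tests rose and 23.8% fell, against 27.7% and 24.4% of all gene-by-line tests. The genes named from each list are mostly its extremes, and the share of all genes passing in as many lines is not given. UBE2A, a partner of RAD18, rose in 8 of 10 lines (median log2 fold change 0.43), while its paralogue UBE2B rose in 4 and fell in 3. PCLAF, a PCNA-binding protein, rose in 6 and fell in 2. USP7, a deubiquitylase with many substrates, fell in 9 of 10 lines (median -0.47), and USP1, which removes ubiquitin from PCNA, rose in 1 and fell in 5. Polymerase delta lends its subunits POLD2 and POLD3 to polymerase zeta. POLD2 fell in 8 lines and rose in none, POLD3 rose in 7 and fell in 1, and POLD4, a subunit of polymerase delta alone, rose in 8 and fell in none. Over its 4 subunits 45.0% of tests rose and 27.5% fell.

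Other specialised polymerases rose more often than the translesion group, in 41.7% of 60 tests, and fell in 6.67%, against 27.7% and 24.4% of all gene-by-line tests. The base excision repair enzyme POLB rose in 7 lines, the primase-polymerase PRIMPOL in 6 and POLQ, of end joining, in 6. The difference between the lists was not tested. Of the 6 other partners of MAD2L2, in shieldin and around it, 18.3% of tests rose and 26.7% fell, and the shieldin subunit SHLD2 fell in 9 of 10 lines (median -0.47).

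The genes whose change over 10 lines was most like that of a member were found among 9553 protein-coding genes. They were RFC3, of the clamp loader, and GINS1, of the replicative helicase, for RAD18 (r = 0.98 and 0.97), and TICRR, of replication origin firing, and PALB2, the partner of BRCA2, for MAD2L2 (0.92 and 0.91). For POLH they were OMA1 and TSPYL1 (0.95 and 0.94), for POLI PCF11 and COLQ (0.97 and 0.93), for POLK PPP4R2 and COMMD2 (0.98 and 0.96), for REV1 CD58 and GPX4 (0.95 and 0.92), and for REV3L IDE and FAR1 (0.96 and 0.95). Of the basal level over 11 lines, the nearest among 12123 genes were UBA2 and ZNF791 for POLH (0.92 and 0.91), NPIPB4 and IMPACT for POLI (0.92 and 0.91), STX12 and SNRPN for POLK (0.92 and 0.89), SFXN2 and KMT2A for REV1 (0.87 and 0.85), ZNF227 and RNF8 for REV3L (0.90 and 0.89), ABTB3 for MAD2L2 (0.91), and CAD and RSKR for RAD18 (0.93 and 0.90). These genes were picked as the highest of many correlations over few lines, and their r is given as a description.

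Libraries of the same group differed in how transcripts of unequal length were represented, and most members moved with this. The deviation of each library from the mean of its group was compared, over 66 libraries, with the median deviation of genes whose canonical transcript has at least 8000 bases, a limit chosen after the values were seen. Pearson's r was 0.85 for REV3L, 0.80 for RAD18, 0.78 for POLI, 0.77 for POLK and 0.72 for REV1, -0.79 for MAD2L2, whose canonical transcript of 1053 bases is the shortest, and 0.24 for POLH. Length did not order these values throughout, since POLH has 8368 bases and REV1 4731. In untreated F-36P, REV3L read 32.3, 51.0 and 95.3 CPM, and long transcripts deviated by -0.12, -0.01 and 0.13 on the log2 scale. After offsets that removed each library's trend with transcript length, an alternative added after the data were seen, the median SE of REV3L was 0.12 against 0.15. With these offsets REV3L rose in 5 lines and fell in 1, F-36P (-0.80 ± 0.23, adjusted p = 0.0104). POLI rose in KASUMI-1 (0.41 ± 0.12, 0.0115) besides its 6 falls, and RAD18 fell in 3 lines, F-36P included (-0.59 ± 0.16, 0.0081). POLK rose in 3 lines, KASUMI-1 included (0.38 ± 0.12, 0.0171), and fell in 2. POLH rose in 5, and the counts for REV1 (0 rises, 1 fall) and MAD2L2 (1 rise, 4 falls) were as before.

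**Figure D5:**
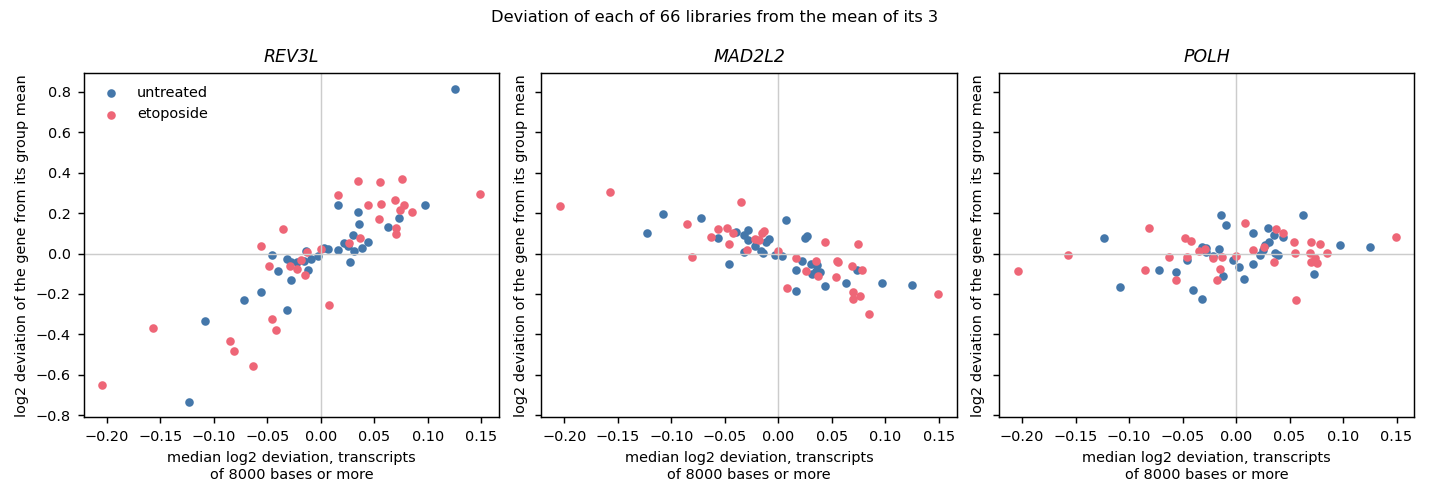
Log2 deviation of REV3L, MAD2L2 and POLH from the mean of their group of 3 against the median deviation of transcripts of at least 8000 bases, for 66 libraries (blue untreated, red etoposide). The points rise for REV3L (r = 0.85), fall for MAD2L2 (r = -0.79) and spread with little slope for POLH (r = 0.24).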

How the data were processed

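RNA from 11 AML cell lines, untreated or exposed to etoposide for 24 hours, was measured in 66 libraries (stranded mRNA, single-end reads). The deposited values are raw counts of reads per gene, which the authors made with STAR 2.5.3a on GRCh38.p7 and gencode release 25. Per the submitters' processing notes, reads were checked with FastQC 0.11.5 and edgeR 3.20.1 was used. The count column and the filter are not given in the sources used here. That the counts follow strand was inferred. Over all libraries, any reads were found on 492 of 766 genes whose whole span is covered by an exon of a gene on the other strand. Those exons were taken from gencode release 44, so that the check cannot decide for exons that release 25 lacked. Of 58037 identifiers, 45 pseudoautosomal duplicates of chromosome Y genes, with 0 reads, were dropped. Names and positions came from gencode release 44.

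Each cell line was fitted in R 4.3.3 with edgeR 4.0.16 (filterByExpr at 10 reads, 15 in total, then TMM scaling, quasi-likelihood test, Benjamini-Hochberg adjustment over all genes tested). Basal levels were fitted over 33 untreated libraries and differences between lines over 60 libraries. Means over 10 lines were tested by an exact two-sided sign-flip permutation (1024 flips, smallest p 0.00195). Python 3.11.15, numpy 2.4.6, pandas 2.3.3 and matplotlib 3.10.9 were used besides. The fit was tested on counts simulated from MV-4-11 alone. It recovered 74 of 100 planted changes of 1.5-fold and 96 of 100 of 3-fold, with 5 other calls among 13737 genes. Changes below 1.5-fold were not simulated. Only the planted genes changed in the simulation, whereas 63.9% of genes passed in the real MV-4-11 comparison. The counts were drawn independently, without the trend with transcript length seen between libraries. These figures therefore need not hold for the real data or for lines with a larger spread.

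The 7 members and the gene lists were chosen with earlier results of these data known. Named were the members, from each list the genes passing in 1 direction in the most lines, and some others of the lists chosen after their values were seen (UBE2B and USP1 for their roles), and for each member the 2 protein-coding genes with the highest r of change and of basal level, at a mean of at least 1 CPM (1 such gene is not reported here). Replicate numbers were taken to pair libraries where every same-numbered pair deviated together with r above 0.1, which held in MOLM-13, NB-4 and OCI-AML2 (lowest r 0.206, 0.219 and 0.106) and not in the others (MONO-MAC-6 came nearest, with 0.076). Replicates differed beyond sampling noise (chi-square per degree of freedom at least 2.05), and p-values measure only the spread between these libraries. Alternatives were no filter or a minimum mean of 5 CPM, scaling by RLE or by library size, edgeR's exact test, DESeq2 1.42.0, a replicate block, 1 fit of 60 libraries, each replicate number left out, omission of F-36P and, added after seeing the data, offsets for transcript length in 20 bins.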

Additional observations from a re-analysis of the deposited data

Results flagged for a closer look

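The etoposide change differed between the 10 cell lines for each of the 7 genes, by the test of the line-by-treatment interaction in 60 libraries. The adjusted p was 4.81e-13 for POLH, 2.69e-05 for POLI, 0.0157 for POLK, 0.00212 for REV1, 0.00316 for REV3L, 4.63e-05 for MAD2L2 and 0.000177 for RAD18. The estimates ranged from -0.14 in F-36P to 1.38 in OCI-AML3 for POLH and from -1.08 in THP-1 to 0.40 in KASUMI-1 for POLI. The etoposide concentration also differed between the lines and cannot be told apart from the line.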

How the results depend on the processing

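Of 29 calls of a member in a cell line, 13 (8 rises and 5 falls) held under all 15 alternatives and 16 were lost under at least 1. The 14 rises became 11 to 18 and the 15 falls 9 to 17 when 1 replicate number was left out in every line, and the 9 falls were found without untreated replicate 3. The falls numbered 9 at a minimum mean of 5 CPM and 7 by library size alone, and with a fold change above 2 there were 1 rise and 1 fall. The mean of POLH over 10 lines, 0.39, was 0.37 without a filter, with an adjusted p of 0.064, and 0.35 to 0.42 when 1 replicate number was left out. The means of REV1 and MAD2L2, which did not pass, changed sign by library size alone (0.0114 and 0.0155). With the replicate block there were 13 rises and 15 falls, and the F of the difference between lines for POLK fell to 2.24. Leaving out 1 replicate number gave an F of 1.89 to 3.98 for POLK and 2.16 to 5.06 for REV1. The cause of these changes was not tested. The block lost POLH (adjusted p = 0.0512) and POLI (0.0658) in NOMO-1 and REV3L (0.0578) and MAD2L2 (0.122) in OCI-AML3, lines whose numbers did not pair the libraries, and it added falls of REV1 in MV-4-11 (0.0267) and NB-4 (0.0308) and a rise in MONO-MAC-6 (0.0239). All 7 basal differences passed under every alternative run.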
